A study of Mus musculus with 12 samples.

Results

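The pyruvate dehydrogenase complex and the enzymes that switch it on and off were followed in mouse hearts through 10 genes: the kinases Pdk1, Pdk2, Pdk3 and Pdk4, the phosphatases Pdp1 and Pdp2, and the complex subunits Pdha1, Pdhb, Dlat and Pdhx. The members were taken by symbol, as every probe set annotated to exactly 1 gene with one of these names. They were represented by 18 of the 34945 single-gene probe sets on the array, and by 10 of 18193 genes. Pdk1 had 4 probe sets, Dlat 3, and Pdp1, Pdha1 and Pdhb 2 each; the other 5 genes had 1. Total heart RNA from 12 samples was hybridised to Affymetrix arrays in 4 groups of 3: wild-type mice after sham surgery, wild-type mice after aortic banding (a constriction of the aorta that loads the left ventricle with pressure), apelin-knockout mice after sham surgery, and apelin-knockout mice after aortic banding. The knockout animals are labelled knockout, for apelin, a secreted peptide encoded by Apln, and the others wild type. The labels call the arrays of a group biological replicates and give the tissue as heart. Strain, age, sex, time after surgery, the part of the heart sampled and the kind of knockout allele were not given in the sources used here, nor was the number of hearts behind each array.

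Pyruvate dehydrogenase sits in the mitochondrial matrix and turns pyruvate, the end product of glycolysis, into acetyl-CoA for the citric acid cycle, an irreversible step that commits carbohydrate carbon to oxidation. Pdha1 and Pdhb encode the alpha and beta subunits of its E1 component, Dlat the lipoyl-bearing E2 acetyltransferase core, and Pdhx the protein that anchors the E3 component to that core. The kinases phosphorylate serines of the Pdha1 product and stop the reaction, and the phosphatases remove those phosphates and restart it. In heart, Pdk4 is known as the isoform induced by fasting and fatty acids through PPAR nuclear receptors, Pdk2 as an abundant constitutive isoform, and Pdk1 as a target of hypoxia-inducible factor. The arrays measured transcript levels and not phosphorylation or enzyme activity.

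Pdk4, Pdp2 and Pdk2 are among the genes that the results describe most, and a RefSeq promoter entry existed for each. The stretches of 250 bases before their annotated starts are shown. They are from RefSeq on the GRCm38.p6 build, 5′ to 3′ along the gene's strand, with capitals marking the E-box letters CACGTG where a search found them. The Pdk4 stretch is chr6:5496279-5496528 on the minus strand, the Pdp2 stretch chr8:104591222-104591471 on the plus strand, and the Pdk2 stretch chr11:95041372-95041621 on the minus strand, the upstream one of its 2 annotated starts.
Pdk4: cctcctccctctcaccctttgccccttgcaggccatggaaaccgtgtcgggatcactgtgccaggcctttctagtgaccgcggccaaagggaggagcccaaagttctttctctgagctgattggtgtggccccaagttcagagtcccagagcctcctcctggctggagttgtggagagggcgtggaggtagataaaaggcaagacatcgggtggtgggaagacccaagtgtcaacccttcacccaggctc
Pdp2: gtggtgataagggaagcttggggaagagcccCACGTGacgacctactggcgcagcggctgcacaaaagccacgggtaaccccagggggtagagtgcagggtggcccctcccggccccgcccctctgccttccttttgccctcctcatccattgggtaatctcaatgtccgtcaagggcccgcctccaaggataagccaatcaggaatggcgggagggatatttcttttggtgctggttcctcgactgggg
Pdk2: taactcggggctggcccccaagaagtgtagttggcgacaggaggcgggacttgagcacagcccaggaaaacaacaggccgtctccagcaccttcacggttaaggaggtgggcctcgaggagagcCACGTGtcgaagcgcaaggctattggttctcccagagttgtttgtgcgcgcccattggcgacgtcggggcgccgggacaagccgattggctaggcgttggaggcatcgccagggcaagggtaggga
There were 11 windows for 9 of the 10 genes. Pdp1, which passed on banding of knockout hearts, had none and was not searched. Windows reaching from 250 bases before to 50 after the start were searched on both strands for GTAAACA (FOXO), TCAAGGTCA (ERR), AGGTCA (a nuclear receptor half-site), CACGTG (E-box) and ACGTG (the core of a hypoxia element, which overlaps the E-box). CACGTG began 219 bases before the Pdp2 start and 126 bases before the Pdk2 start that is shown, and 7.15% of all 32851 windows held it. It was in no other window of the 10 genes. The window of the second Pdk2 start, which is not shown, held none of the 5 motifs. ACGTG outside an E-box was found for Pdhb, 248 bases before the start, and for Pdk3, 53 bases before it, against 19.6% of all windows, a share that counts E-boxes too. The letters of the FOXO, ERR and half-site motifs, held by 3.65%, 0.423% and 16.3% of all windows, were not in any of the 11 windows, and none of the 5 motifs was in the Pdk4 window. These matches describe letters in a window and not occupied sites.

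The deposited values are linear intensities that had been scaled so that each array's mean, trimmed by 2% at each end, was 150, and array medians ran from 40.3 to 50.4. Apln was on average lower in knockout than in wild-type arrays (log2 difference -0.96, exact permutation test over 6 against 6 arrays, two-sided p = 0.013), but the array labelled knockout banded 1 read 271 and lay within the wild-type range of 205 to 333. Where the Apln probe set lies relative to the knockout allele was not given in the sources used here. The same array had a summed level of 1900 over 6 lung epithelium markers, against 154 to 242 in the other 11 arrays, and the highest summed level of adipocyte markers, 1430 against 602 to 1127. Cidea gave 772 of that 1430 and read 406 to 678 in the other arrays. Adipoq was 327 in wild-type banded 1, and Retn and Lep were not highest in knockout banded 1, where Adipoq was 392. The airway gene Scgb1a1 read 1094 in it, and the lung alveolar marker Sftpc 49.2 against 51.8 at most in the others. Knockout banded 1 also differed from knockout banded 2 and 3 in some genes. The collagen gene Col1a2 was 668 in it, against 2282 and 1620, with knockout sham arrays at 436 to 692. The lipid gene Cpt2 was 2337, against 1144 and 1499, with knockout sham arrays at 2435 to 2524. In other genes it was nearer to them, as Slc2a4 at 2549, against 1934 and 2317, with knockout sham arrays at 3443 to 3940. The main results that rest on this array are therefore given with and without it. The defining markers of heart muscle were abundant in every array (Myh6 at 9688 to 19471), and the summed level of 10 general and ventricular cardiomyocyte markers ran from 82970 to 85267 in banded and 101320 to 112020 in sham knockout arrays. In wild-type arrays it ran from 95781 to 118930 after banding and from 84705 to 161530 after sham surgery. In RNA from whole tissue, fewer cells of a type and less RNA per cell cannot be told apart.

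**Figure D1:**
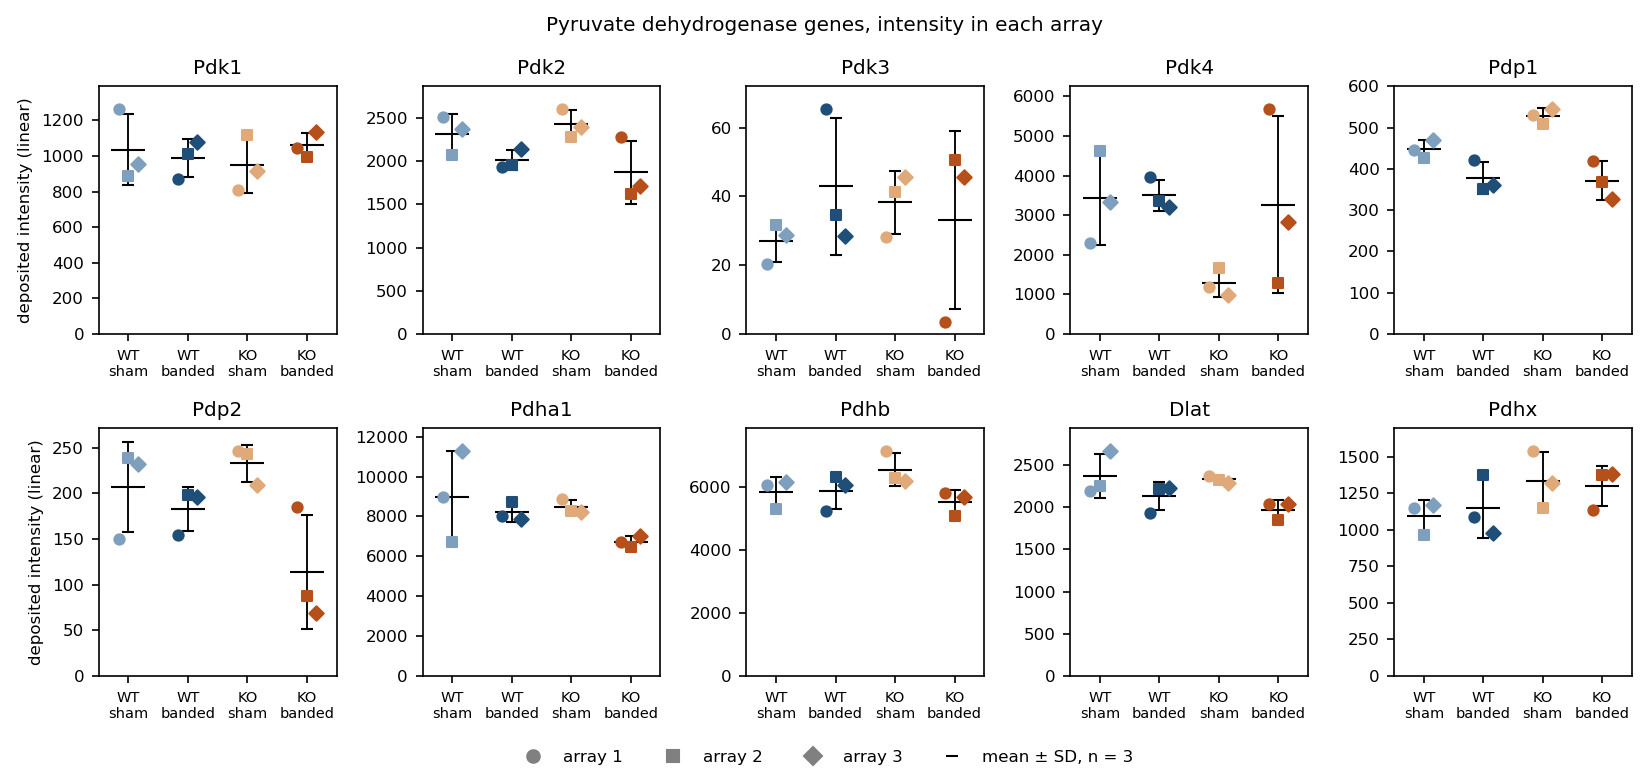
Deposited linear intensity (vertical axis, from 0, a scale of its own for each gene) of each of the 10 genes in each array, by group; the symbol gives the array number, and the horizontal bar with whiskers is the mean ± SD of 3 arrays. WT is wild type and KO is apelin knockout; Pdk4 is low in all 3 knockout sham arrays (997 to 1671) and spread from 1293 to 5696 in the knockout banded arrays, while Pdp1 and Pdp2 are lower in each knockout banded array than in each knockout sham array.

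After banding of knockout hearts, the transcripts of both phosphatases fell. Pdp1 fell to 0.71 of its sham level and Pdp2 to 0.486, and these were the 2 of 9 tested genes that passed an adjusted p of 0.05 (limma, Benjamini-Hochberg over all 10916 tested genes, on log2 of intensity plus 16). The background in that comparison was 3.81% of genes passing in either direction and 1.76% passing as lower. The median log2 difference of the 9 genes was -0.25, against -0.018 over all genes tested. Without knockout banded 1 these medians were -0.28 and -0.028. After quantile normalization they were -0.082 and -0.019, and 1 of the 9 genes passed. In wild-type hearts banding left 0 of 9 past the threshold, where 0.0% of all genes passed, although 1 of the 9 and 534 of all genes had an unadjusted p under 0.05. Pdk3 was not tested, because its mean of 35.3, with arrays from 3.43 to 65.5, lay below the upper 60% of genes by mean that were kept.

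Pdk4, the kinase best known for shutting the complex when fat is burned, had the widest spread of the group. Its intensity was 2295, 4633 and 3343 in wild-type sham arrays 1 to 3, and 3955, 3348 and 3218 in wild-type banded arrays 1 to 3. It was 1189, 1671 and 997 in knockout sham arrays, and 5696, 1293 and 2820 in knockout banded arrays. The knockout sham arrays all lay below every wild-type array, and the knockout banded arrays reached from inside the knockout sham range to above every other array. Group means in sham hearts were 3424 ± 1171 for wild type and 1285 ± 347 for knockout (SD, n = 3 each). In banded hearts they were 3507 ± 393 for wild type and 3270 ± 2235 for knockout (SD, n = 3 each). The pooled SD within groups was 0.62 on the log2 scale, wider than in 98.5% of tested genes, whose median was 0.18.

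The Pdk4 difference between banded and sham knockout hearts was 1.12 on the log2 scale (SE 0.41, a 2.18-fold ratio) and did not pass after adjustment (limma adjusted p = 0.143). In wild-type hearts it was 0.086, with a 95% interval from -0.81 to 0.98. The difference between these 2 banding effects was 1.04, with a 95% interval from -0.23 to 2.30 (adjusted p = 0.604), and 0.51 without knockout banded 1. The array with the highest Pdk4 was the one labelled knockout banded 1, which also had the highest adipocyte and lung marker sums. Whether fat or lung cells had a part in its Pdk4 value was not tested. Without that array the banding effect in knockout hearts was 0.60 (SE 0.33, adjusted p = 0.27), and without knockout banded 2 it was 1.66. Of the knockout banded arrays, array 2 (1293) lay inside the knockout sham range. Array 3 (2820) lay inside the wild-type sham range but below every wild-type banded array. Only knockout banded 1 (5696) lay above the wild-type arrays.

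Between genotypes, Pdk4 was 0.385 of the wild-type level in knockout sham hearts, the largest genotype difference of the group. The log2 difference was -1.38 (SE 0.41), and it failed the correction over all genes (limma adjusted p = 0.93), in a comparison where 0.0% of genes passed and 570 had an unadjusted p under 0.05. It was lower in all 3 knockout sham arrays than in all 3 wild-type sham arrays; 10.8% of all tested genes were without overlap in that comparison. In banded hearts the genotype difference was -0.34 (95% interval -1.23 to 0.55), -0.86 without knockout banded 1 (adjusted p = 0.152) and 0.20 without knockout banded 2 (adjusted p = 0.902), so that leaving out 1 array turned its direction. Averaged over both surgeries it was -0.86 (adjusted p = 0.398), where 0.0% of genes passed and 1158 had an unadjusted p under 0.05. That average was -1.12 without knockout banded 1 and passed (adjusted p = 0.038), with 1.29% of all genes passing. Angptl4, a PPAR-responsive gene whose product inhibits lipoprotein lipase, had the smallest p of its list in the sham comparison, at -1.23 (SE 0.50, limma adjusted p = 0.93). Its means were 163 ± 112 in wild-type and 51.5 ± 16.5 in knockout sham hearts (SD, n = 3 each). The groups overlapped, with wild-type sham 1 at 62.6 and knockout sham 1 at 69.4. Of the 20 tested PPAR-responsive lipid genes, 0 passed there and 5 were above 0, with a median of -0.052.

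Pdk2, the constitutive kinase of heart, was 2511, 2069 and 2372 in wild-type sham arrays and 1937, 1952 and 2147 in wild-type banded arrays. It was 2611, 2280 and 2398 in knockout sham arrays and 2286, 1620 and 1709 in knockout banded arrays. The knockout groups overlapped by a narrow margin, through the array labelled knockout banded 1. The log2 difference on banding was -0.39 in knockout hearts (SE 0.13, limma adjusted p = 0.109) and -0.20 in wild-type hearts (SE 0.13, adjusted p = 0.941). When knockout banded 1 was left out, the knockout difference was -0.54 and passed (adjusted p = 0.0082), and the average over both genotypes was -0.37 and passed (adjusted p = 0.0096). The Pdk2 and Pdk4 differences in knockout hearts had opposite signs, and neither passed on all 12 arrays.

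Pdk1, the hypoxia-responsive kinase, had a banding difference of 0.17 in knockout hearts (95% interval -0.15 to 0.49) and -0.054 in wild-type hearts (-0.37 to 0.27). Its means were 1036 ± 202 (sham) and 989 ± 106 (banded) in wild type, and 947 ± 157 (sham) and 1060 ± 72 (banded) in knockout (SD, n = 3 each). The other 2 Pdk1 probe sets with a level above the filter gave knockout banding differences of 0.34 and 0.42, and the fourth, at a mean of 16.6, was too dim to test. Pdk3 means were 26.9 ± 6.0 (sham) and 42.9 ± 19.9 (banded) in wild type, and 38.3 ± 9.2 (sham) and 33.2 ± 25.9 (banded) in knockout, and the groups overlapped.

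Pdp1, the calcium-stimulated phosphatase that is the main one in muscle, was 445, 427 and 471 in wild-type sham arrays and 423, 351 and 361 in wild-type banded arrays. It was 530, 509 and 546 in knockout sham arrays and 420, 369 and 327 in knockout banded arrays. Every banded array lay below every sham array of its genotype, in both genotypes. The log2 difference was -0.50 in knockout hearts (SE 0.11, limma adjusted p = 0.0298) and -0.24 in wild-type hearts (SE 0.11, adjusted p = 0.921), and the difference between these effects was -0.26, with a 95% interval from -0.59 to 0.07 (adjusted p = 0.622), and -0.35 without knockout banded 1 (adjusted p = 0.262). A second Pdp1 probe set, dimmer at a mean of 297, gave -0.50 in knockout and -0.40 in wild-type hearts. In a limma fit of single probe sets neither passed (adjusted p = 0.141 and 0.893). Its knockout groups overlapped, with knockout banded 1 at 340 and knockout sham 1 at 327, and its difference between the effects was -0.098. Averaged over both genotypes Pdp1 fell by 0.37 on the log2 scale (SE 0.08, adjusted p = 0.0372), 1 of 9 tested genes past the threshold in a comparison where 1.6% of all genes passed and 0.669% passed as lower.

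The Pdp1 direction was the same in every alternative fit, many of which could not change it, and its call was not. The knockout difference was -0.58 without knockout banded 1 (adjusted p = 0.0044). Without knockout banded 2 or 3, or knockout sham 1, 2 or 3, it was -0.41 to -0.52 and did not pass (adjusted p from 0.083 to 0.138). The average over genotypes held without knockout banded 1 (-0.41, adjusted p = 0.0048) and lost its call, at -0.32 to -0.41, without any one of the other 11 arrays (adjusted p from 0.053 to 0.102). With only the 6 knockout arrays in the fit, the knockout difference did not pass (adjusted p = 0.0734).

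Pdp2, the phosphatase that is less sensitive to calcium and is known to respond to insulin and feeding, was 150, 239 and 232 in wild-type sham arrays and 155, 198 and 196 in wild-type banded arrays. It was 247, 243 and 210 in knockout sham arrays and 185, 87.4 and 68.5 in knockout banded arrays. Knockout banded arrays 2 and 3 were lower than the other 10 arrays, and knockout banded 1 lay inside the wild-type range. The log2 difference on banding was -1.04 in knockout hearts (SE 0.27, limma adjusted p = 0.0497), just past the threshold, and -0.14 in wild-type hearts (SE 0.27, adjusted p = 0.99). Without knockout banded 1 it was -1.41 (adjusted p = 0.00072). Without knockout banded 2 or 3, or any 1 knockout sham array, it was -0.78 to -1.11 and did not pass (adjusted p from 0.112 to 0.203), and leaving out any wild-type array other than sham 1 kept the difference of -1.04 and brought the adjusted p to between 0.058 and 0.066.

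Pdp2 was also the gene of the group whose banding effect differed most by p between the genotypes. The difference between the effects was -0.90 (95% interval -1.71 to -0.08) and did not pass (limma adjusted p = 0.522), in a test where 0.0% of genes passed and 994 had an unadjusted p under 0.05. Leaving out knockout banded 1 made it -1.27, which passed (adjusted p = 0.032) with 1.91% of all genes passing; without any 1 of the other 11 arrays it was -0.64 to -1.01 and did not pass. In banded hearts Pdp2 was 0.61 of the wild-type level in knockout (log2 difference -0.71, adjusted p = 0.244), where 0.0% of genes passed and 1594 had an unadjusted p under 0.05. This genotype difference was -1.08 without knockout banded 1 and passed (adjusted p = 0.0074), with 6.11% of all genes passing. It was -0.60 without knockout banded 2 (adjusted p = 0.586) and -0.45 without knockout banded 3 (adjusted p = 0.604). The comparisons named here share arrays, the knockout banded ones above all, and are not independent of each other.

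**Figure D2:**
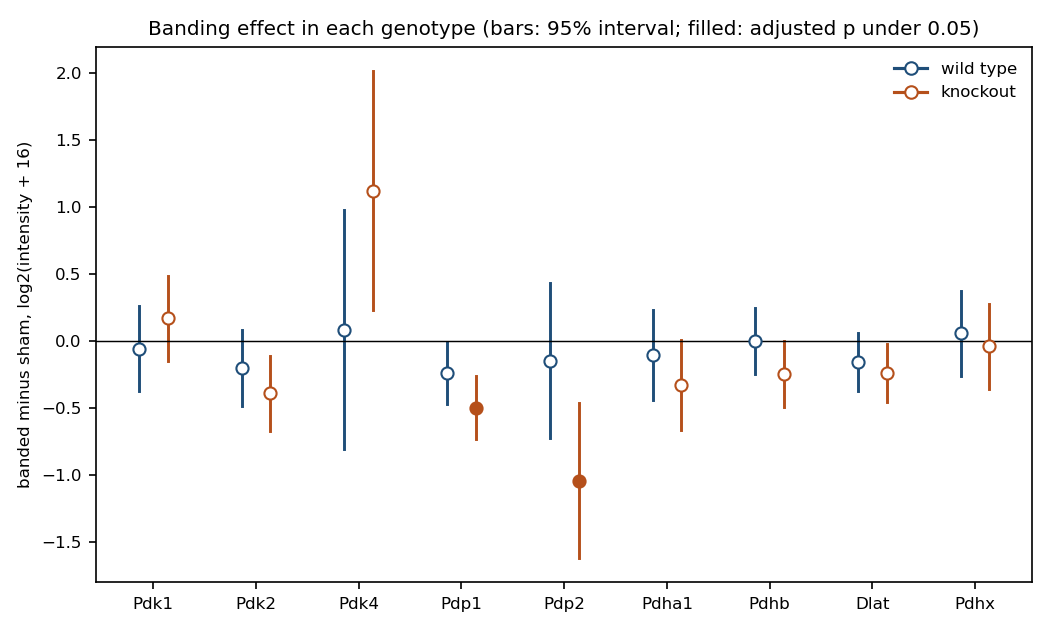
Log2 difference between banded and sham hearts (vertical axis, log2 of intensity plus 16) for the 9 tested genes, in wild type (blue) and in apelin knockout (orange), each from 3 against 3 arrays; bars are 95% intervals of the fit and filled points passed an adjusted p of 0.05. The filled points are Pdp1 (-0.50) and Pdp2 (-1.04) in knockout hearts, and the widest intervals belong to Pdk4.

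Pdha1, the subunit that the kinases phosphorylate, was 8872, 8289 and 8215 in knockout sham arrays and 6737, 6447 and 7031 in knockout banded arrays. These groups did not overlap, but the difference of -0.33 did not pass (SE 0.15, limma adjusted p = 0.248). In wild-type arrays it was 8981, 6713 and 11308 after sham and 8024, 8752 and 7864 after banding, with overlap and a difference of -0.10. A second Pdha1 probe set gave -0.34 in knockout hearts. Without knockout banded 1 the knockout difference was also -0.33 (adjusted p = 0.272). In sham wild-type arrays the Pdha1 order (array 2 lowest, array 3 highest) was also that of the summed cardiomyocyte markers, at 84705, 113030 and 161530.

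Pdhb, the other E1 subunit, was 7151, 6287 and 6200 in knockout sham arrays and 5791, 5059 and 5684 in knockout banded arrays, again without overlap. The difference was -0.25 (SE 0.11, limma adjusted p = 0.235), -0.28 without knockout banded 1 (adjusted p = 0.185), and 0.004 in wild-type hearts. Its dimmer probe set, at a mean of 229, gave 0.08 in knockout hearts and so differed in sign. Dlat, the E2 core, was 2372, 2324 and 2292 in knockout sham arrays and 2040, 1844 and 2037 in knockout banded arrays. This too was without overlap, at a difference of -0.24 (SE 0.10, adjusted p = 0.193), -0.26 without knockout banded 1 (adjusted p = 0.157), and -0.15 in wild-type hearts. Its other 2 probe sets gave -0.25 and -0.37 in knockout hearts. Pdhx, which docks E3, had -0.037 (95% interval -0.35 to 0.28) in knockout and 0.060 (-0.26 to 0.38) in wild-type hearts; without knockout banded 1 the knockout value turned to 0.054 (-0.29 to 0.40).

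Counted by array, 5 of the 9 tested genes (Pdp1, Pdp2, Pdha1, Pdhb and Dlat) were lower in each knockout banded array than in each knockout sham array, and none was higher. Over all tested genes 26.6% were without overlap in that comparison. With knockout banded 1 left out, 6 of 9 were lower without overlap, Pdk2 being the sixth, against 49.3% of all genes. In wild-type hearts 1 of 9, Pdp1, was without overlap, against 9.93% of all genes. The summed cardiomyocyte markers were without overlap between the knockout groups as well, 10 of the 10 markers had a difference below 0 with a median of -0.31, and 1 of them passed (Ryr2, the calcium release channel, -0.53, limma adjusted p = 0.032). Markers of fibroblasts, endothelium and macrophages were mostly above 0 in the same comparison. These were 6 of 7 fibroblast markers, of which Col1a1, a chain of type I collagen, rose (1.18, limma adjusted p = 0.0287). They were also 7 of 7 endothelial markers, of which 0 passed, and 6 of 7 macrophage markers, of which 0 passed. Of the atrial cardiomyocyte markers 5 of 6 were above 0 (median 0.40), and the 1 tested lung marker was below 0 (-0.44). The summed atrial level ran from 6239 to 35659 in wild-type banded and 4169 to 30639 in wild-type sham arrays. In knockout arrays it ran from 12666 to 16582 after banding and from 6022 to 27144 after sham surgery. The summed endothelial level was 3653 to 3946 in banded and 3171 to 3490 in sham knockout arrays, without overlap, while the fibroblast sums of 7248 to 11655 and 7178 to 8990 overlapped. Without knockout banded 1, the cardiomyocyte median was -0.32 and Col1a1, Col1a2 and endothelial Pecam1 passed as higher. The differences of Pdha1 and Pdhb, whose intensities are near the top of the array, moved to -0.082 and -0.042 after quantile normalization, and the median of the cardiomyocyte markers moved to -0.045. Those of Pdp1, Pdp2 and Dlat were -0.51, -1.04 and -0.23 after it. The part of the cardiomyocyte, atrial, fibroblast and endothelial marker levels in these values was not tested.

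**Figure D3:**
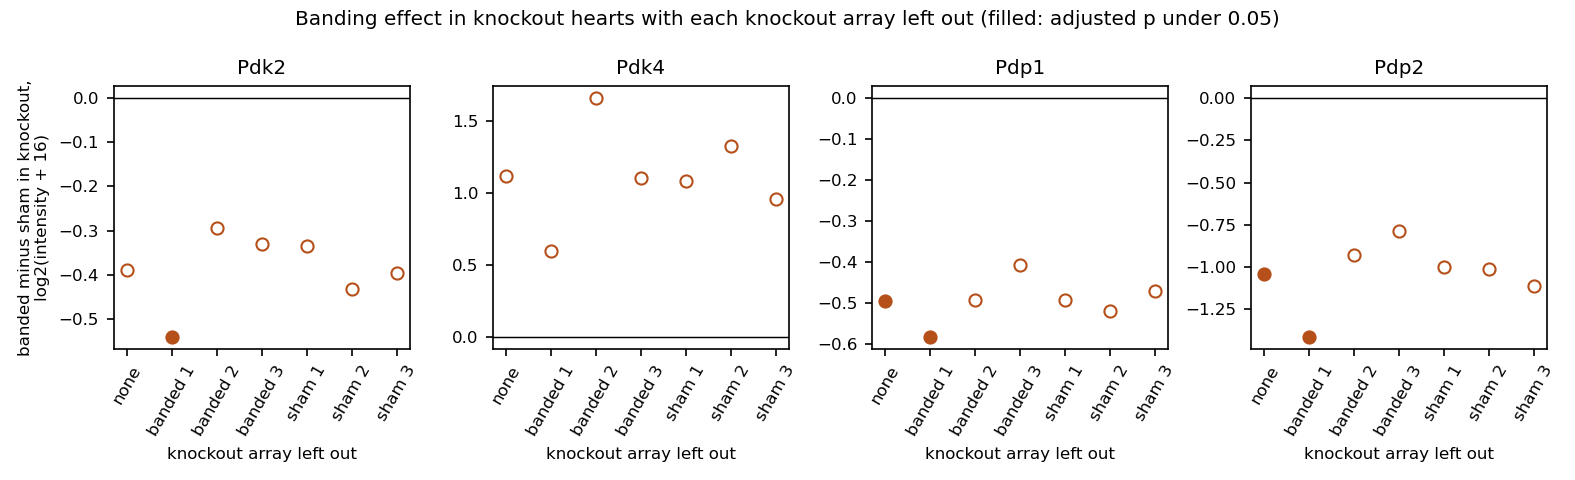
Log2 difference between banded and sham knockout hearts (vertical axes, log2 of intensity plus 16, a scale of its own for each gene) for Pdk2, Pdk4, Pdp1 and Pdp2, with all arrays (none) and with each of the 6 knockout arrays left out in turn; filled points passed an adjusted p of 0.05. Without knockout banded 1, Pdk2, Pdp1 and Pdp2 are filled and Pdk4 is at 0.60; without any other knockout array no point is filled.

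Genotype differences other than those of Pdk4 and Pdp2 were small. In sham hearts Pdp1 was higher in each knockout array than in each wild-type array (log2 difference 0.23, SE 0.11, limma adjusted p = 0.93), and Pdhb likewise (0.16, adjusted p = 0.952), so that with Pdk4 3 of 9 genes were without overlap there, against 10.8% of all genes. The dimmer probe sets gave 0.12 for Pdp1 and -0.07 for Pdhb in that comparison. Pdhx was 0.28 (95% interval -0.04 to 0.60) and Pdp2 0.18 (-0.39 to 0.76). In banded hearts Pdha1 was lower in each knockout array than in each wild-type array (-0.28, SE 0.15, limma adjusted p = 0.42), 1 of 9 without overlap against 19.1% of all genes. Over 25 alternative fits this Pdha1 difference ran from -0.32 to -0.050 and passed in 0 of them. Without knockout banded 1, 4 of 9 genes were without overlap (Pdk2, Pdk4, Pdp2 and Pdha1, all lower) against 42.2% of all genes. Averaged over surgery Pdhx was 0.23 (95% interval 0.01 to 0.46, adjusted p = 0.46). None of the 9 passed in either single comparison, where 1 of the 9 had an unadjusted p under 0.05 in each.

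The pathway around the complex was read through 7 lists, of which 83 of 98 genes were tested. The E3 subunit and the cofactor and lipoylation genes had 0 of 6 past the threshold on banding of knockout hearts, with a median log2 difference of -0.18; the smallest p was that of Dld, the E3 dehydrogenase itself (-0.29, SE 0.11, limma adjusted p = 0.157). Its level was 2664 ± 224 after sham surgery and 2174 ± 212 after banding in knockout hearts (SD, n = 3 each). Among the related lipoyl complexes, 9 of 9 were below 0 with a median of -0.36, and 1 of 9 fell: Bckdhb, the E1 beta subunit of branched-chain ketoacid dehydrogenase, went from 624 ± 104 to 330 ± 107 (SD, n = 3 each; log2 difference -0.91, adjusted p = 0.0242). For all genes tested the median was -0.018, and 1.76% passed as lower.

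Among the genes of pyruvate supply and its other fates, 1 of 13 fell. This was Gpt2, the mitochondrial alanine aminotransferase, from 133 ± 16 to 76.7 ± 15.9 (SD, n = 3 each; -0.69, limma adjusted p = 0.035), and the list's median was -0.18. Among the glucose entry genes 2 of 9 fell: Slc2a4, the insulin-responsive glucose transporter, from 3626 ± 273 to 2267 ± 310 (-0.68, adjusted p = 0.0269), and Akt2, a kinase of insulin signalling, from 872 ± 27 to 632 ± 66 (-0.46, adjusted p = 0.0241). The median of that list was -0.11, since 4 of its 9 genes were above 0. In the average over both genotypes 1 gene of each of these 2 lists fell, Gpt, the cytosolic alanine aminotransferase (-0.60, adjusted p = 0.0442), and Akt2 (-0.30, adjusted p = 0.0454).

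In the citric acid cycle, which takes up the acetyl-CoA that the complex makes, 12 of 12 genes were below 0 and 1 of 12 fell. That gene was Sdha, the flavoprotein of succinate dehydrogenase, at 7036 ± 248 after sham surgery and 5100 ± 455 after banding (SD, n = 3 each; -0.47, limma adjusted p = 0.0399). The list's median was -0.36, and after quantile normalization it was -0.22 with 0 of 12 passing. Among known upstream regulators of the kinase genes 0 of 14 passed, with a median of -0.20; Hif1a, the oxygen-regulated subunit of hypoxia-inducible factor, had the smallest p (0.61, SE 0.17, adjusted p = 0.0684). Among PPAR-responsive lipid genes, the class to which Pdk4 is known to belong, 0 of 20 passed, 19 of 20 were below 0 and the median was -0.32; Acadvl, which starts the oxidation of very long acyl chains, had the smallest p (-0.49, SE 0.13, adjusted p = 0.0529). Pdk4, at 1.12, thus had the opposite sign to 19 of these 20 genes in this comparison of groups, and it was 0.60 without knockout banded 1. Among the knockout banded arrays, Pdk4 was highest in knockout banded 1. So was every tested PPAR-responsive lipid gene except Acadm, as Ucp3 at 685 in it, against 74.3 and 81.7 in knockout banded 2 and 3. In wild-type hearts, with the same 7 lists, 0 of 83 genes passed and the medians ran from -0.14 to -0.038.

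Without the array labelled knockout banded 1, where 13.2% of all genes passed on banding of knockout hearts, 3 of the 9 complex, kinase and phosphatase genes passed. The lists then had 5 of 9 related lipoyl complex genes, 3 of 13 pyruvate genes, 3 of 9 glucose entry genes, 5 of 12 citric acid cycle genes and 11 of 20 PPAR-responsive lipid genes past the threshold as lower. Of the regulators 4 of 14 were lower (Ppara, Rxra, Ppargc1a and Esrra) and Hif1a was higher; the partners and cofactors stayed at 0 of 6. The genes named above as falling had log2 differences of -1.15 (Bckdhb), -0.83 (Gpt2), -0.77 (Slc2a4), -0.54 (Akt2) and -0.52 (Sdha), and all 5 passed. In the average over genotypes, where 9.12% of all genes passed without that array, Pdk2, Pdp1 and Pdp2 passed as lower, as did Gpt (-0.64) and Akt2 (-0.34). With any 1 of the other 5 knockout arrays left out, 9 to 88 of all genes passed on banding of knockout hearts, against 416 with all arrays, and none of the 9 complex, kinase and phosphatase genes was among them.

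**Figure D4:**
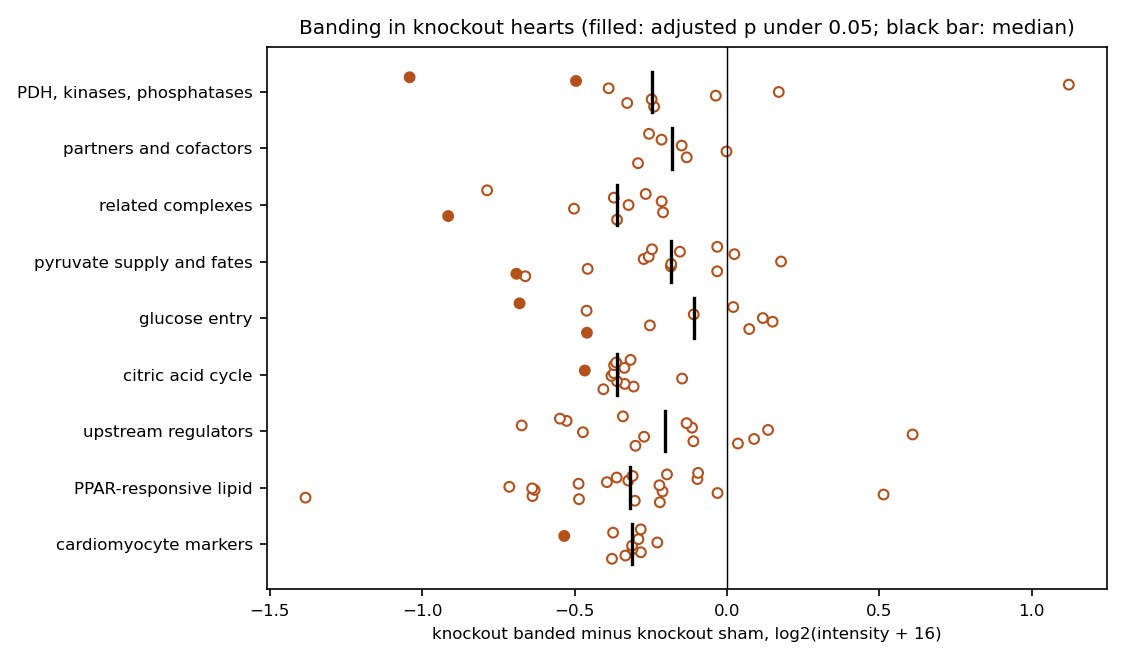
Log2 difference between banded and sham knockout hearts (horizontal axis, log2 of intensity plus 16) for each tested gene of the complex with its kinases and phosphatases, of 7 pathway lists and of the cardiomyocyte markers; each circle is a gene, filled where it passed an adjusted p of 0.05, and black bars are medians. The median is below 0 in each row, at -0.25 for the complex with its regulators and at -0.31 for the cardiomyocyte markers, and the circle farthest right in the top row is Pdk4.

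The genes whose log2 values followed Pdk4 most closely over the 12 arrays were Aoc3, Amotl2, Etohd2, Zfp809 and Tbc1d32. Aoc3, an amine oxidase of vascular and fat cells, had a Pearson r of 0.904 (Spearman 0.874), and Amotl2, an angiomotin-like junction protein, 0.894 (0.853). Etohd2, Zfp809 and Tbc1d32 had r of 0.877, 0.859 and 0.855. Without the 2 arrays farthest from the Pdk4 median, knockout sham 1 and 3, the 5 values ran from 0.789 to 0.845, and with group means removed they ran from 0.763 to 0.938. These are the highest of 10916 genes, chosen for their likeness, over arrays that share groups and scaling, and they describe these arrays only. Within the group itself, r with Pdk4 was -0.62 for Pdhx, -0.47 for Pdp1 and between -0.36 and 0.13 for the other 6 tested genes. With group means removed it was -0.51 for Pdhx, 0.27 for Pdp1, 0.69 for Pdp2, 0.40 for Pdk2 and between -0.14 and 0.28 for the other 4. For Pdk1, Pdk2, Pdp1, Pdhb and Dlat the sign differed from that over pooled groups. Knockout banded 1 had the highest log2 value of its group for Pdk4 (12.48), Pdp2 (7.65), Pdk2 (11.17) and Pdp1 (8.77). By a narrower margin it was also highest for Pdhb (12.50) and Dlat (11.01), and it was not for Pdk1, Pdha1 and Pdhx. The r values were not computed without that array.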

How the data were processed

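The table held 12 arrays and 45101 probe sets; gene names came from the platform annotation, which gave 34945 probe sets a single gene, 932 several and 9160 none. The authors deposited linear intensity values, per the table itself scaled to a 2% trimmed mean of 150 per array; the software that made them is not given in the sources used here. Values were transformed as log2(intensity + 16). The probe set with the highest mean stood for a gene, and the upper 60% of genes by mean (10916 of 18193) were tested with limma 3.58.1 in R 4.3.3 (lmFit, eBayes with a variance trend) on 4 group means, with 7 contrasts, two-sided, and Benjamini-Hochberg adjustment over all tested genes at 0.05. Fold ratios are on the log2(intensity + 16) scale and understate changes of dim genes. The number of arrays, 3 per group, limits precision. The procedure was tested on simulated data. The 10 genes, the lists and the tests were chosen with earlier results of these data known. Named were all 10 genes, list genes past the threshold (up to 4 by p, otherwise the one with the smallest p), the 5 genes most like Pdk4, and Apln; Sftpc, Scgb1a1, Myh6 and Ryr2 are markers. Replicate numbers did not pair arrays (r between same-numbered arrays -0.28 to 0.23). Alternatives covered the filter, pseudocount, scaling, probe set choice, array weights, arrays in the fit and a replicate block. Protein sequences were not used here.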

Additional observations from a re-analysis of the deposited data

Results flagged for a closer look

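The genotype difference of Pdhb, the E1 beta subunit, ran in opposite directions in sham and banded hearts in the brighter of its 2 probe sets. It was 0.16 on the log2 scale after sham surgery (0.1647), with each knockout array above each wild-type array, and -0.087 after banding (-0.0868), with each knockout array below the wild-type mean of 5862. The test of the difference between the 2, the interaction of banding and genotype, gave -0.25 (95% interval -0.60 to 0.10, limma adjusted p = 0.652). The banded value was 0.12 after quantile normalization, the 1 of 25 alternatives in which its sign turned. The dimmer Pdhb probe set had the opposite signs, at -0.07 in sham and 0.027 in banded hearts, with an interaction of 0.097.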

How the results depend on the processing

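Pdp1 kept its direction on banding of knockout hearts in 25 of 25 alternative fits and passed in 18 of them (log2 difference -0.41 to -0.58). Pdp2 kept its direction in all 25 and passed in 7 (-0.78 to -1.41). Many of these fits leave both differences unchanged by construction, so that only the adjusted p could move. They are those with another filter, no variance trend, every probe set, only the groups compared, a replicate block or 1 wild-type array left out. The count of genes of the complex, kinases and phosphatases past the threshold in that comparison was 2 as reported. It was 1 with no filter on low values, a pseudocount of 1, quantile normalization, no variance trend, every single-gene probe set tested, or a replicate block. It was 0 with the mean of probe sets or with only the groups compared. With array weights it was 3, as it was with knockout banded 1 and wild-type banded 3 both left out. Leaving out 1 array gave 0 to 3. Averaged over genotypes, 1 as reported, the count was 0 with no filter, median scaling, no variance trend, the mean of probe sets or the replicate block, and 3 with array weights or with knockout banded 1 and wild-type banded 3 both left out; leaving out 1 array gave 0 to 3. Between genotypes in banded hearts, 0 as reported, it was 1 with array weights and with both arrays left out, and 0 to 1 leaving out 1 array. For the genotype average and the interaction, 0 as reported, leaving out 1 array gave 0 to 1, with 1 only without knockout banded 1. Banding in wild type and genotype in sham gave 0 in every alternative. The replicate block, with numbers that did not pair the arrays, left 237 genes called for banding in knockout hearts and 60 for the average, against 416 and 175. Over all genes those counts were 212 and 77 with no filter and 1870 and 769 with array weights; the first was 74 with only the groups compared, the second 88 with no variance trend. Leaving out 1 array, they ran from 9 to 1441 and from 5 to 996.

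Signs turned as follows, most for values near 0; the cause was not tested. On banding of wild-type hearts, Pdhb, 0.004 as reported, was -0.0193 with quantile normalization, -0.0086 with the mean of probe sets and -0.0209 with both arrays left out. On banding of knockout hearts, Pdhx was 0.0227 with array weights and 0.0542 with both arrays left out. Between genotypes in sham hearts, Pdha1 was 0.0165 and Dlat 0.053 with median scaling, and Dlat 0.0929 with the mean of probe sets. Between genotypes in banded hearts, Pdk1 was -0.0141 and Pdp1 0.0001 with the mean of probe sets, Pdp1 0.0264 with median scaling and Pdhb 0.1206 with quantile normalization. Leaving out 1 array, the wild-type banding difference ran from -0.1547 to 0.0968 for Pdk1, -0.1716 to 0.3326 for Pdk4, -0.2961 to 0.0793 for Pdha1, -0.063 to 0.0839 for Pdhb and -0.0772 to 0.1669 for Pdhx, and the knockout one of Pdhx from -0.1402 to 0.0706. The sham genotype difference ran from -0.2468 to 0.0279 for Pdk1, -0.0084 to 0.1303 for Pdk2, -0.0165 to 0.2945 for Pdp2, -0.253 to 0.1225 for Pdha1 and -0.0737 to 0.0668 for Dlat. The banded one ran from -0.8648 to 0.1979 for Pdk4 and -0.1141 to 0.0597 for Pdp1, and the interaction of Pdhx from -0.2035 to 0.0405.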
